A study of Mus musculus with 20 samples.

Results

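The natriuretic peptide and endothelin genes were examined in whole mouse kidney after exposure to puberulic acid, a tropolone compound made by some moulds. The set holds 9 genes of the 55822 in the count table: Nppa, Nppb, Npr1, Npr2, Npr3, Corin, Edn1, Ednra and Ednrb. They were picked by symbol, with results of the comparison between puberulic acid and control already known, among them a large increase of Nppb. Their values in that comparison are therefore a description: no p-value is given for them, and whether a member was past the threshold of the fit over all genes is stated only to describe it. A filter on low counts kept 8 of the 9, and 16266 genes in all were tested. Nppa did not pass that filter, and Nppb passed it through the puberulic acid libraries alone.

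The animals were male C57BL/6J mice, an inbred strain, 8 weeks old, with no genetic change named in the labels. Controls received phosphate-buffered saline (PBS), and treated animals received puberulic acid at 1 mg per day, in 6 administrations with organs taken on day 7. The labels disagree on the route, naming the mouth alone or a choice of gavage and intraperitoneal injection. Each of these groups had 5 libraries of poly(A) RNA, 1 kidney sample each. The 10 samples of animals given a normal or a toxic lot of the supplement Choleste-Help are not analysed here, because the names of the remaining 10 columns do not show which lot they hold.

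Natriuretic peptides are hormones that increase sodium and water excretion and widen vessels. The heart is their main source, and they act through receptors that make cyclic GMP inside the cell. Endothelin-1, the product of Edn1, is a strong constrictor of vessels that is also made by collecting duct cells, where it limits sodium reabsorption. Both systems meet in the glomerulus, the renal vessels and the collecting duct.

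The libraries held 18409877 to 24705587 estimated counts each. Values are CPM, a gene's count relative to the library size on a fixed scale, with library sizes corrected by TMM factors (trimmed mean of M-values). In these units 3 counts corresponded to 0.158 to 0.195 CPM in the controls and 0.0964 to 0.128 CPM with puberulic acid. Throughout, the error of a mean is the SD over n = 5 libraries and the error of a log2 fold change is its SE. The proximal tubule list (5 of 5 genes) was lower and the injured tubule list (5 of 5 genes) was higher with puberulic acid. The first principal component of all tested genes ran from -72.8 to -61.1 over controls and from 71.0 to 81.5 over treated replicates 2 to 5, while treated replicate 1 stood apart at 36.3. Values without that replicate are given where they make or end a call or move a value or a count by over 1.5 times, and beside some others. Nothing in the labels says that any library was a repeat of another, and each was counted as 1 animal.

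Nppb and Nppa lie next to each other on mouse chromosome 4, and Edn1 lies on chromosome 13. The sequences before their start sites are shown because these are the members that encode the hormones themselves, rather than a receptor or a protease. They come from RefSeq (GRCm38.p6, plus strand), whereas the submitters' processing notes name GRCm39 for the counts. Capitals mark matches to AGATAA or TGATAA, the letters bound by GATA factors, to TATAAA, the TATA box (plus strand only), and to CATTCC on either strand, the letters bound by TEAD factors.
Nppb, bases -105 to -76, chr4:147985795-147985824: GGAATGcagcTGATAAatcagAGATAAccc
Nppa, bases -250 to -1, chr4:148000472-148000721: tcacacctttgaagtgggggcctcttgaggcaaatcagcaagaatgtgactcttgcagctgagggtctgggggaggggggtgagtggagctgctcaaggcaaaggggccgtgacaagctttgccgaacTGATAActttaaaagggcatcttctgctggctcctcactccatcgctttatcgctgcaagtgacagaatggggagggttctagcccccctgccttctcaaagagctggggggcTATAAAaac
Edn1, bases -250 to -1, chr13:42301226-42301475: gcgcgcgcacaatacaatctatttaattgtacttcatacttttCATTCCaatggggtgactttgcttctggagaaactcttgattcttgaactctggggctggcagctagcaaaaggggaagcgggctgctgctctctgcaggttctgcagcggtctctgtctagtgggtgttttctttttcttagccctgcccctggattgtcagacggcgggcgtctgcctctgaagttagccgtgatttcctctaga
The Nppb stretch was cut to 30 bases placed around its TGATAA match, whereas 250 bases are printed for Nppa and Edn1. It holds a CATTCC match on the minus strand followed by both GATA forms. The TATAAA match of Nppb, at -31, lies outside it. How dense the matches are therefore cannot be compared between these sequences. The stretch lies before the RefSeq start site but inside the first exon of a longer GENCODE M21 model of Nppb.

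Windows of 300 bases, 250 before and 50 after the start site, were matched by symbol for all 9 members. AGATAA, read on both strands, was found in the windows of Nppb and Edn1 and in 11.2% of all 32851 windows. TGATAA was found in those of Nppb and Nppa and in 9.05% of all windows. TATAAA was found in those of Nppb and Nppa and in 8.32% of all windows. CATTCC was found in those of Nppb and Edn1 and in 14.7% of all windows. The letters TGANTCA of the AP-1 factor were in none of the 9 windows and in 7.81% of all windows. The windows of Npr1, Npr2, Npr3, Corin, Ednra and Ednrb held none of these letters. A match is a run of letters and not a measured site.

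Of the 8 members tested, 5 were past an adjusted p-value of 0.05 in edgeR's quasi-likelihood test: Nppb, Edn1 and Ednra were higher and Npr2 and Corin were lower with puberulic acid. The same threshold was passed by 65.3% of all tested genes, 34.2% higher and 31.1% lower. The ranges of both groups did not overlap for 4 of the 8 (Nppb and Edn1 higher, Npr2 and Corin lower), against 50.1% of all tested genes, 26.1% higher and 24.0% lower. The comparison was used to choose the members, so nothing is read from these counts. Fewer cells of a type and less RNA per cell cannot be told apart in whole tissue.

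Nppb (ENSMUSG00000029019) encodes the precursor of B-type natriuretic peptide, the peptide measured in blood as a sign of strain on the heart. It had 0 counts in all 5 control libraries. In puberulic acid replicates 1 to 5 it had 285, 645, 568, 667 and 467 estimated counts, or 10.6, 27.5, 24.1, 27.2 and 15.01 CPM. Every treated animal was above every control, and replicates 1 and 5 were the lowest of the treated animals. The mean of 20.9 ± 7.65 CPM was at least 116-fold higher than the mean control level that 3 counts per library would give, 0.180 CPM. Without puberulic acid replicate 1 this lower bound was 128-fold.

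Nppa (ENSMUSG00000041616) encodes the precursor of atrial natriuretic peptide, which the atria of the heart release when stretched. It too had 0 counts in all 5 controls. Puberulic acid replicates 1 to 5 had 6.01, 18.8, 5.92, 23.6 and 22.7 estimated counts, which is 0.223, 0.809, 0.254, 0.978 and 0.739 CPM. Replicates 1 and 3 were low and the other 3 were higher, and all 5 were above 3 counts. The mean of 0.601 ± 0.342 CPM was at least 3.33-fold higher than the same control limit. An antisense gene, Gm13054, overlaps Nppa, and whether counting used strand is not stated. Gm13054 reached at most 0.163 CPM in any library.

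Heart muscle RNA was checked for because Nppa and Nppb are heart genes. The summed level of 8 heart muscle markers ran from 3.74 to 5.43 CPM over the controls and from 4.79 to 8.43 CPM over the treated animals. Myh6, the main heavy chain of mouse heart muscle myosin, was at 0.264 to 2.74 CPM over the controls and at 0 to 0.705 CPM over the treated animals. It did not pass the filter, nor did Myh7, Tnni3 and Actc1. Nkx2-5, a heart regulator, reached at most 0.0424 CPM in any library. Tnnt2, a troponin gene, rose from a mean of 0.428 ± 0.654 to 3.35 ± 1.43 CPM (adjusted p = 0.0024), with 4 of 5 treated animals above all controls. Myl7, Ryr2 and Myl4 were tested and did not pass. The part of heart muscle RNA in the level of Nppb and Nppa was not tested further.

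Edn1 (ENSMUSG00000021367) had 1.20, 2.00, 1.91, 0.561 and 1.95 CPM in control replicates 1 to 5. Its values in puberulic acid replicates 1 to 5 were 5.46, 7.67, 7.29, 8.72 and 7.81 CPM. The groups did not overlap, and the lowest treated animal was again replicate 1. The mean went from 1.52 ± 0.631 to 7.39 ± 1.20 CPM, with 2.27 ± 0.30 as the log2 fold change. It stayed between 2.05 and 2.38 when each sample was left out in turn.

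Corin (ENSMUSG00000005220) encodes the membrane protease that cuts the atrial peptide precursor to its active form. It had 8.05, 6.27, 9.16, 9.41 and 3.18 CPM in control replicates 1 to 5 and 3.01, 0.596, 0.678, 0.204 and 1.35 CPM in puberulic acid replicates 1 to 5. Control replicate 5 was the lowest control and lay just above puberulic acid replicate 1, so that the groups were only just apart. The mean went from 7.22 ± 2.57 to 1.17 ± 1.11 CPM, with -2.61 ± 0.56 as the log2 fold change. It was -3.33 when treated replicate 1 was left out. Set against the summed proximal tubule markers of the same library, the log2 ratio of Corin was -10.2 ± 0.790 in controls and -8.76 ± 0.945 with puberulic acid, and these ranges overlapped.

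Npr1 (ENSMUSG00000027931) encodes guanylyl cyclase A, the receptor through which both peptides raise cyclic GMP. It had 17.6, 17.2, 24.4, 19.4 and 29.5 CPM in control replicates 1 to 5 and 18.5, 9.07, 12.6, 19.4 and 16.8 CPM in puberulic acid replicates 1 to 5. Treated replicates 2, 3 and 5 were below all controls, and replicates 1 and 4 were within their range. The means were 21.6 ± 5.25 and 15.3 ± 4.34 CPM and the log2 fold change, -0.50 ± 0.22, did not pass the threshold. It passed without any one of control replicates 1 and 2 and treated replicates 1 and 4, and ran from -0.63 to -0.37 over all fits without 1 sample.

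Npr2 (ENSMUSG00000028469) encodes guanylyl cyclase B, the receptor of C-type natriuretic peptide. Control replicates 1 to 5 had 12.7, 21.4, 17.3, 18.0 and 22.3 CPM, and puberulic acid replicates 1 to 5 had 9.39, 8.82, 6.99, 7.66 and 7.84 CPM. All treated animals lay below all controls, within a narrow range of their own. The mean went from 18.3 ± 3.80 to 8.14 ± 0.957 CPM, with -1.17 ± 0.16 as the log2 fold change.

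Npr3 (ENSMUSG00000022206) encodes the clearance receptor, which removes natriuretic peptides and makes no cyclic GMP. Its control values in replicates 1 to 5 were 9.13, 12.8, 16.1, 14.3 and 17.8 CPM, and its values with puberulic acid were 12.1, 2.90, 7.12, 7.42 and 11.9 CPM. Treated replicates 2, 3 and 4 were below all controls, while replicates 1 and 5 were inside their range. The means were 14.0 ± 3.32 and 8.28 ± 3.83 CPM and the log2 fold change, -0.75 ± 0.32, did not pass the threshold. It was -0.56 without treated replicate 2 and -0.95 without treated replicate 1, and the latter fit passed the threshold, as did those without control replicate 1 or treated replicate 5.

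Ednra (ENSMUSG00000031616) encodes the endothelin A receptor, which drives contraction of vascular smooth muscle. It had 1.43, 1.11, 1.65, 0.935 and 2.79 CPM in control replicates 1 to 5 and 3.75, 1.28, 3.18, 2.69 and 4.63 CPM in puberulic acid replicates 1 to 5. Treated replicates 1, 3 and 5 were above all controls, and replicates 2 and 4 lay within the control range. The mean went from 1.58 ± 0.731 to 3.10 ± 1.25 CPM, with 0.98 ± 0.37 as the log2 fold change. The call was lost when any one of control replicates 1 to 4 or of puberulic acid replicates 1, 3, 4 and 5 was left out, and the log2 fold change ran from 0.76 to 1.27 over all fits without 1 sample.

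Ednrb (ENSMUSG00000022122) encodes the endothelin B receptor of endothelium and collecting duct, which releases nitric oxide and clears endothelin. It had 17.7, 15.3, 19.4, 25.4 and 24.8 CPM in control replicates 1 to 5 and 20.5, 8.82, 13.0, 13.9 and 19.3 CPM in puberulic acid replicates 1 to 5. Treated replicates 2, 3 and 4 were below all controls, and replicates 1 and 5 were among them. The means were 20.5 ± 4.40 and 15.1 ± 4.79 CPM and the log2 fold change, -0.44 ± 0.22, did not pass the threshold. It was -0.60 and passed without treated replicate 1.

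**Figure D1:**
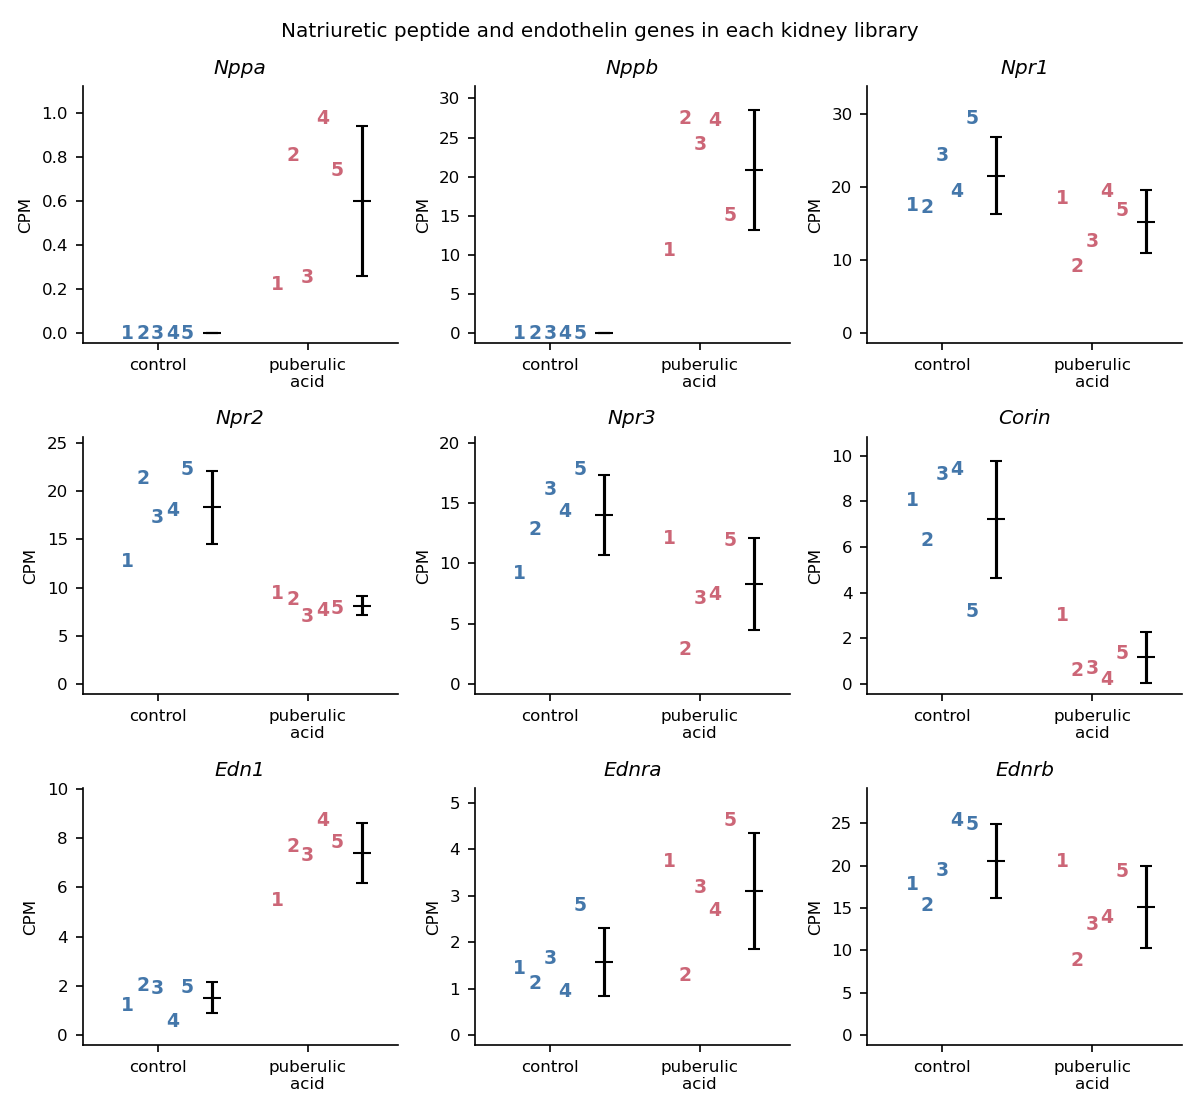
Level of each of the 9 genes in CPM (vertical axis, from 0, a separate scale per gene) in the control and puberulic acid groups. Each digit is the library with that replicate number, and black bars are the mean and SD of 5 libraries. Nppb, Nppa and Edn1 lie above all controls in all 5 treated libraries, Npr2 and Corin lie below, and the other 4 genes overlap.

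Scaling bears on the receptors. With libraries scaled to total counts, the middle log2 fold change over the tested genes moved from 0.05 to 0.56, and 9179 genes were called higher and 2526 lower (78.4% higher) where TMM factors gave 5564 and 5058 (52.4% higher). Under total counts the log2 fold changes of Npr1, Ednrb and Npr3 were 0.01, 0.07 and -0.24, all under that median, while Npr2 and Corin were at -0.66 and -2.10 and Edn1 and Ednra at 2.78 and 1.496. The direction of Npr1 and Ednrb thus flips with the scaling, and that of the other members with a fit does not.

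Ratios taken within a library do not depend on scaling. The log2 ratio of Ednrb to Ednra was 3.64, 3.79, 3.55, 4.76 and 3.15 in control replicates 1 to 5 and 2.45, 2.79, 2.04, 2.37 and 2.06 in puberulic acid replicates 1 to 5. All treated animals lay below all controls, with means of 3.78 ± 0.598 and 2.34 ± 0.309 and a difference of -1.44. The log2 ratio of Npr3 to Npr1 was -0.63 ± 0.216 in controls and -0.99 ± 0.501 with puberulic acid, and the groups overlapped. Both ratios hold members, and neither was tested.

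Markers of the cells that carry these receptors were summed in each library. The summed level of 8 endothelial markers was 249 to 385 CPM over the controls and 136 to 307 CPM over the treated animals. Of these markers, 3 were called lower (Kdr, Egfl7 and Ehd3) and none higher. Podocyte markers, 6 genes, summed to 240 to 515 CPM over the controls and 116 to 464 CPM over the treated animals, with 1 of the 6 called lower. Treated replicate 2 had the lowest sum of both lists, and also the lowest Npr1, Npr3, Ednra and Ednrb of the treated animals.

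Against the summed endothelial markers of the same library, the log2 ratio of Npr1 was -3.90 ± 0.177 in controls and -3.92 ± 0.203 with puberulic acid. That of Ednrb was -3.97 ± 0.192 and -3.94 ± 0.139. The differences of -0.01 and 0.03 were smaller than the spread of the animals in either group. The log2 ratio of Edn1 to the same markers was -7.84 ± 0.823 in controls and -4.93 ± 0.568 with puberulic acid, with no overlap. Collecting duct markers, a list for the other main source of Edn1, summed to 579 to 866 CPM over the controls and to 311 to 366 CPM over the treated animals, and 5 of 6 were called lower.

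Npr2 against the endothelial markers had a log2 ratio of -4.14 ± 0.249 in controls and -4.78 ± 0.499 with puberulic acid, and treated replicate 2 lay within the control range. Npr3 against the podocyte markers had a log2 ratio of -4.73 ± 0.0889 in controls and -5.28 ± 0.256 with puberulic acid, and the groups were apart by less than 0.01, since treated replicate 1 was at -4.857 and control replicate 5 at -4.855. For Ednra, the log2 ratio to 8 markers of smooth muscle, mural and mesangial cells was -7.40 ± 0.325 in controls and -7.62 ± 0.670 with puberulic acid, with overlap. The log2 ratio of Ednra to 6 fibroblast markers was -6.03 ± 0.656 and -8.13 ± 0.844, a difference of -2.10, and treated replicate 1 lay within the control range. These lists were 3 higher and 1 lower of 8 for the smooth muscle group and 4 higher of 6 for fibroblasts. The fibroblast sum was 80.4 to 114 CPM over the controls and 376 to 1477 CPM over the treated animals. With puberulic acid, most of it came from Col1a1 and Col3a1, at means of 353 and 448 CPM (log2 fold changes 4.14 and 4.12). Dcn and Lum were called higher at 1.24 and 1.18, and Pdgfra and Dpt, at 0.33 and 0.46, were not called. In the same group, most of the smooth muscle sum came from Acta2 and Tagln, at 192 and 266 CPM (2.77 and 3.21). Pdgfrb was called higher at 1.09 and Rgs5 lower at -0.72. How far these genes set the ratios of Ednra was not tested. Immune markers summed to 58.1 to 101 CPM over the controls and 97.6 to 198 CPM over the treated animals, with 2 of 5 tested called higher. The ratios to markers were chosen after seeing the data and hold members, so they are a description and not a test. The part of these cell types in the values of the members was not tested.

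**Figure D2:**
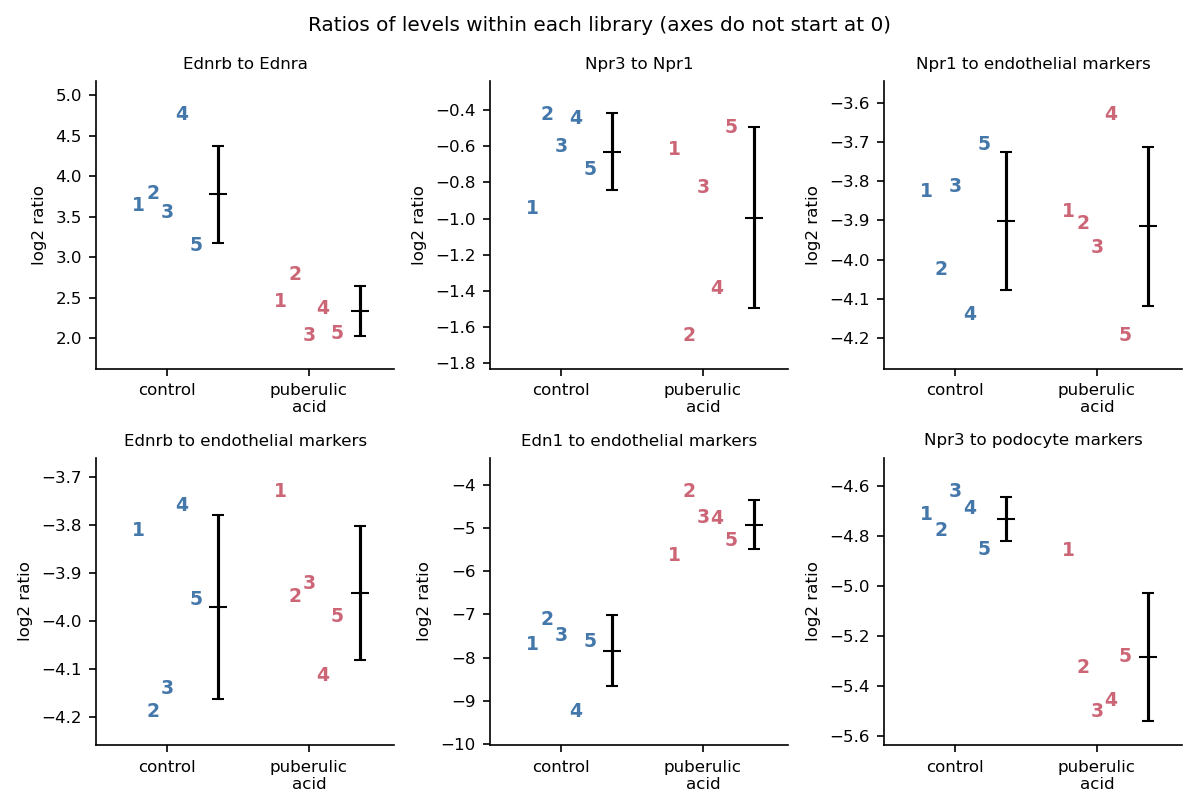
Log2 ratios within each library (vertical axes, which do not start at 0) for 2 pairs of members and for 4 members set against summed endothelial or podocyte markers. Digits are replicate numbers and black bars are the mean and SD of 5 libraries. Ednrb to Ednra and Edn1 to endothelial markers are apart between the groups, while Npr1 and Ednrb to endothelial markers overlap.

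Levels were compared between genes only per kilobase of transcript, with the longest basic coding transcript of GENCODE M21 as the length, which may not be the annotation used for the counts. In controls Npr1 (5.32 ± 1.29 CPM per kilobase), Npr2 (5.01 ± 1.04) and Ednrb (5.00 ± 1.07) led and did not differ from each other beyond their spread. Npr3 followed at 2.03 ± 0.481 and Corin at 1.48 ± 0.529, with overlapping ranges. Edn1 at 0.712 ± 0.295 and Ednra at 0.437 ± 0.202 also overlapped, and Nppb and Nppa were at 0.

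With puberulic acid Nppb led at 26.7 ± 9.79 CPM per kilobase, and its lowest library, at 13.5, was above the highest library of every other member. Npr1 (3.76 ± 1.07), Ednrb (3.68 ± 1.17) and Edn1 (3.45 ± 0.562) came next and overlapped with each other. Npr2 was at 2.22 ± 0.262 and ran from 1.91 to 2.57. It overlapped with Npr1 (from 2.23) and Ednrb (from 2.15), and its highest library was just above the lowest of Edn1. Npr3 was apart from Npr2 at 1.20 ± 0.556. Ednra at 0.856 ± 0.345, Nppa at 0.694 ± 0.395 and Corin at 0.240 ± 0.228 were the lowest, and each overlapped with its neighbour.

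**Figure D3:**
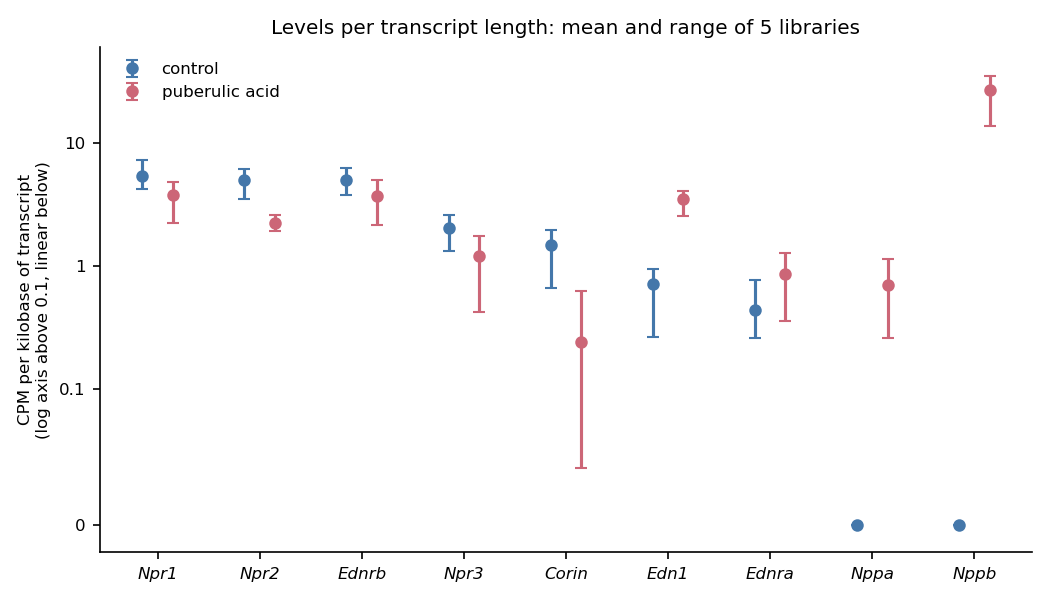
Level per kilobase of transcript of each gene (vertical axis, CPM per kilobase, logarithmic above 0.1 and linear below), ordered by the control mean. Points are means and bars run from the lowest to the highest of 5 libraries. Nppb moves from 0 in controls to the highest of the 9 genes at 26.7, and Edn1 from 0.712 to 3.45.

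The other genes of these pathways were described from 5 lists with 59 genes, of which 47 passed the filter. Of the 47, 18 were called higher and 12 lower, with a median log2 fold change of 0.22 against 0.05 over all tested genes. Over all tested genes 34.2% were called higher and 31.1% lower. No set test was run, and the list counts are a description. Under total counts 27 were called higher and 8 lower, beside 9179 and 2526 of all 16266 tested genes. Without puberulic acid replicate 1 they were 18 and 17, beside 5713 and 5395 of 16589. Changes given here are edgeR log2 fold changes with SE and with adjusted p-values over all tested genes.

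Of the other ligands, only Edn3, which encodes endothelin-3, passed the filter. It fell from a mean of 6.46 ± 0.774 to 3.10 ± 0.916 CPM (log2 fold change -1.06 ± 0.21, adjusted p = 0.000711), and was lower in 5 of 5 treated animals than in any control. Nppc, the gene of C-type natriuretic peptide, averaged 0.0769 CPM over the controls and 0.130 CPM over the treated animals, under the level of 3 counts in the control group. Edn2 and Ostn, the gene of a ligand of the clearance receptor, were listed at 0 in all controls and averaged 0.0254 and 0.0470 CPM with puberulic acid.

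Proteases that activate or degrade the peptides were called lower for 7 of 9 tested, with none higher and a median log2 fold change of -0.98. The shares over all tested genes were 31.1% lower and 34.2% higher. Under total counts 5 were called lower and 2 higher, and without puberulic acid replicate 1 all 9 were called lower. The meprin subunits, brush border enzymes of the proximal tubule that degrade B-type natriuretic peptide, fell most. Mep1b went from 249 ± 44.2 to 36.2 ± 20.6 CPM (log2 fold change -2.78 ± 0.32, adjusted p = 1.30e-05), and Mep1a from 1690 ± 252 to 363 ± 60.1 CPM (log2 fold change -2.22 ± 0.14, adjusted p = 1.33e-07). In the same libraries the proximal tubule markers, 5 of 5 called lower, summed to 6000 to 9223 CPM over the controls and to 247 to 807 CPM over the treated animals. Ide, the insulin-degrading enzyme that also cuts natriuretic peptides, had a log2 fold change of -0.74 ± 0.08 (adjusted p = 8.15e-06). Dpp4, a peptidase that trims peptide ends, had one of -0.25 ± 0.10 (adjusted p = 0.0425), and its direction turned under total counts, at 0.26. The call of Dpp4 was also lost with upper-quartile scaling, with no filter, with the replicate number as a block (-0.26), and without any one of control replicates 2, 4 and 5 or puberulic acid replicates 2, 3 and 4, at values from -0.27 to -0.16.

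Genes of the cyclic GMP pathway were called higher for 9 and lower for 1 of 18 tested, with a median log2 fold change of 0.57. Without puberulic acid replicate 1 they were 9 and 2. Shares over all tested genes in the main fit were 34.2% higher and 31.1% lower. Prkg2, which encodes the type II cyclic GMP-dependent kinase, rose from a mean of 0.761 ± 0.248 to 10.2 ± 3.59 CPM (log2 fold change 3.74 ± 0.32, adjusted p = 1.08e-06). Vasp, which encodes an actin regulator that the cyclic nucleotide kinases phosphorylate, rose from a mean of 25.2 ± 2.61 to 88.7 ± 11.9 CPM (log2 fold change 1.81 ± 0.11, adjusted p = 1.05e-07). Pde9a, a phosphodiesterase specific for cyclic GMP, fell from a mean of 32.1 ± 3.31 to 10.7 ± 1.99 CPM (log2 fold change -1.58 ± 0.13, adjusted p = 8.44e-07). Pde3b, a phosphodiesterase that cyclic GMP inhibits, rose from a mean of 12.5 ± 2.07 to 18.6 ± 4.13 CPM (log2 fold change 0.57 ± 0.16, adjusted p = 0.0076). For each of these 4 genes all 5 treated animals lay outside the control range.

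Endothelin receptor signalling was split, with 3 genes called higher and 3 lower of 11 tested and a median log2 fold change of -0.01. Under total counts 6 were called higher and 1 lower, and without puberulic acid replicate 1 they were 3 and 5. Itpr3, an inositol trisphosphate receptor that releases stored calcium, rose from a mean of 8.19 ± 1.17 to 25.1 ± 6.93 CPM (log2 fold change 1.62 ± 0.20, adjusted p = 2.14e-05). Gna13, a G protein subunit, rose from a mean of 62.5 ± 9.34 to 146 ± 12.4 CPM (log2 fold change 1.23 ± 0.11, adjusted p = 1.79e-06). Plcb1, a phospholipase C, fell from a mean of 25.7 ± 3.57 to 11.4 ± 3.85 CPM (log2 fold change -1.17 ± 0.20, adjusted p = 0.00023). Gna12 had a log2 fold change of -0.45 ± 0.14 (adjusted p = 0.0133), which turned to 0.06 under total counts.

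Regulators of the natriuretic peptide genes are transcription factors and cofactors known from heart muscle. They were called higher for 6 of 8 tested with none lower and a median log2 fold change of 0.51. Across all tested genes 34.2% were called higher and 31.1% lower. Tead4, a TEAD factor, rose from a mean of 0.886 ± 0.340 to 7.75 ± 0.408 CPM (log2 fold change 3.12 ± 0.24, adjusted p = 5.03e-07). Gata6, a GATA factor, rose from a mean of 0.966 ± 0.387 to 3.19 ± 0.679 CPM (log2 fold change 1.70 ± 0.28, adjusted p = 0.000185). Yap1 and Wwtr1, cofactors of the TEAD proteins, had log2 fold changes of 0.46 ± 0.06 (adjusted p = 4.63e-05) and 0.45 ± 0.07 (adjusted p = 0.000159). All 5 treated animals were above all controls for these 4 genes. Gata4 did not pass the filter, with 0 counts in controls and from 0.0407 to 0.682 CPM in treated animals. Nkx2-5, Tbx5 and Myocd did not pass it either. Mef2a and Tead1 were also called higher, and Mef2c and Srf were tested and not called. Whether any of these factors acts on Nppb or Nppa here was not tested.

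**Figure D4:**
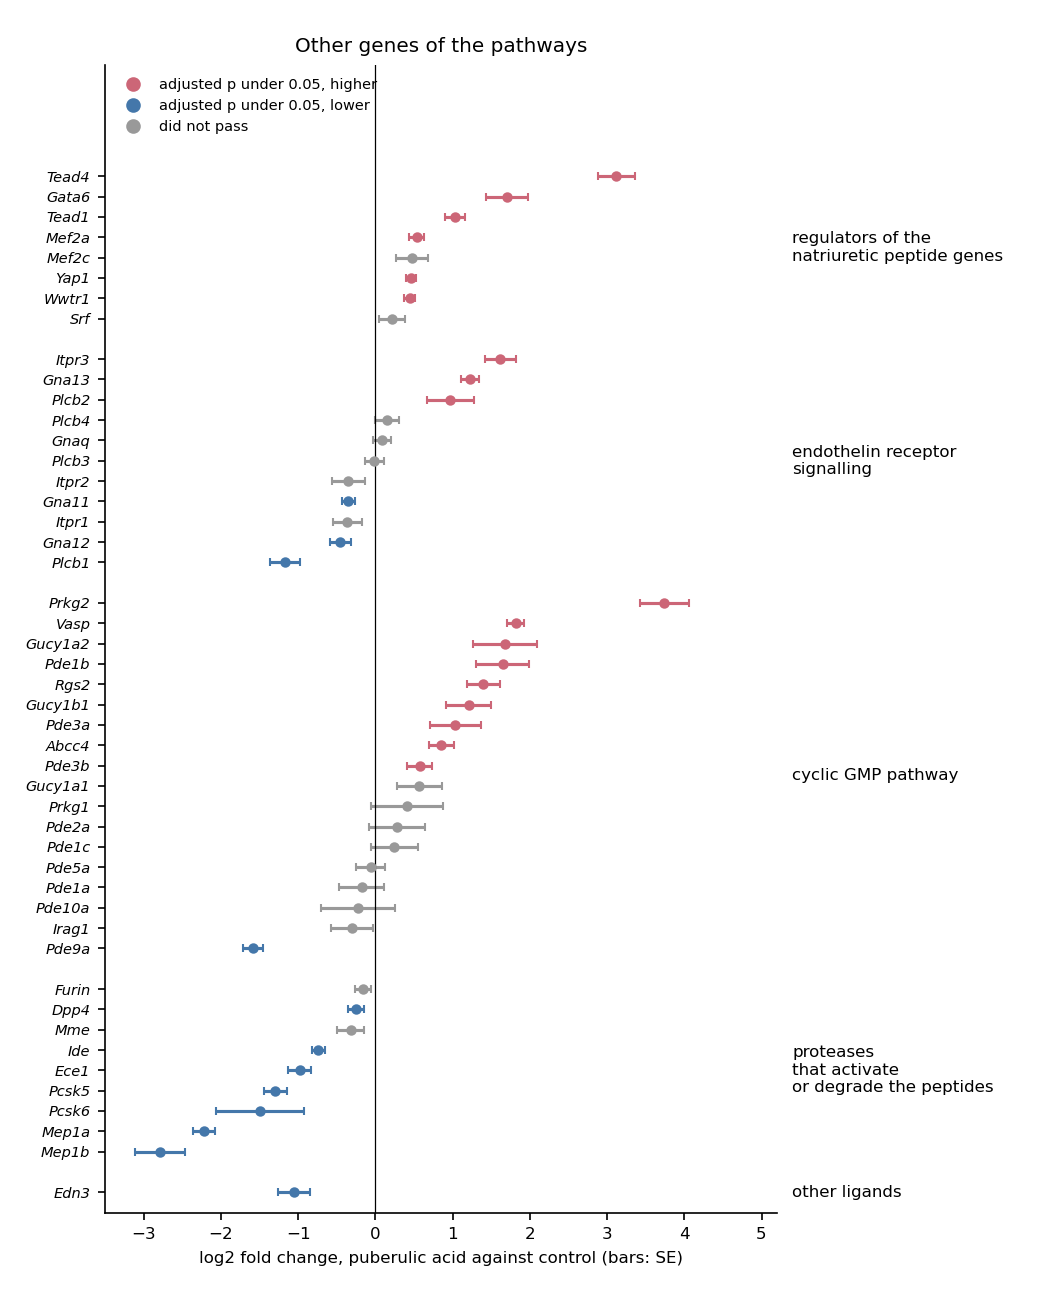
Log2 fold change of the 47 tested pathway genes, puberulic acid against control (horizontal axis, bars are SE), in 5 lists. Red points passed the threshold and were higher, blue points passed and were lower, grey points did not pass. Prkg2 (3.74) and Tead4 (3.12) lie farthest to the right and Mep1b (-2.78) farthest to the left.

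The genes beside the peptide genes were examined because position was not used to choose the members. Protein-coding genes near the Nppb and Nppa pair were taken from the RefSeq order. Mfn2, Clcn6 and Agtrap were called lower, with log2 fold changes of -0.56 ± 0.13, -0.57 ± 0.18 and -0.68 ± 0.10 (adjusted p = 0.00277, 0.0144 and 0.000106). Fv1, Plod1 and 2510039O18Rik, at 0.05, -0.11 and -0.16, did not pass, and Draxin was not tested. None of the 6 tested genes named here changed 2-fold, beside the bound of 116-fold for Nppb. Under total counts Mfn2, Clcn6 and Agtrap were no longer called, and Plod1 and 2510039O18Rik turned to 0.40 and 0.35.

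Around Edn1, the nearest gene before it, Hivep1, rose from a mean of 18.2 ± 5.24 to 40.8 ± 9.90 CPM (log2 fold change 1.16 ± 0.21, adjusted p = 0.000359). Nedd9 and Gfod1 were also called higher, at 0.73 ± 0.12 (adjusted p = 0.000193) and 2.46 ± 0.35 (adjusted p = 6.78e-05). Adtrp fell from a mean of 130 ± 11.9 to 24.0 ± 6.28 CPM (log2 fold change -2.44 ± 0.16, adjusted p = 1.41e-07), and Tbc1d7 and Sirt5 were called lower at -0.40 ± 0.11 (adjusted p = 0.0074) and -0.73 ± 0.14 (adjusted p = 0.000587). Tmem170b and Phactr1, at 0.17 and -0.23, did not pass. Under total counts Tbc1d7 turned to 0.11, Sirt5 lost its call and Tmem170b was called higher.

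Genes with the most similar pattern were found by the root mean square difference of centred log2(CPM + 0.5) profiles over the 10 samples, on which a difference between the groups weighs most. The nearest to Nppb were Lce1g and Sprr2h, genes of the cornified envelope of skin, at differences of 0.257 and 0.267. Both belong to families of near copies, so their own values are uncertain. Like Nppb, both had a mean of 0 CPM in controls. With 1 in place of 0.5, the nearest to Nppb were instead Arg2 (0.131) and Socs3 (0.204). At 0.5 the nearest to Edn1 were Nrg1, the gene of the growth factor neuregulin (0.196), and Ttc39a (0.219). At 1 they were Uck2 (0.156) and Spdl1 (0.189). Again at 0.5, the nearest to Corin were Ppp1r1b (0.249) and Cck (0.331), and those to Npr2 were Tmem82 (0.0781) and Myo7b (0.104).

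Gpihbp1 (0.170) and Dll4 (0.171), both known from endothelium, were nearest to Npr1. Erg, an endothelial transcription factor (0.149), and Ecm2 (0.159) were nearest to Ednrb. Fbln5 (0.140) and Daam2 (0.149) were nearest to Npr3. Msrb3 (0.215) and Gucy1a1, a subunit of the nitric oxide receptor (0.225), were nearest to Ednra.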

How the data were processed

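The file holds estimated counts per gene, deposited by the authors with no normalization stated. The submitters' processing notes name fastp 0.22.0, FastQC 0.12.1, MultiQC 1.28, Salmon 1.10.3, DESeq2 and GRCm39, with no role or order, and per the labels' protocols libraries were poly(A)-selected and directional. Columns were matched to samples by name, and 10 columns were not used. Counts were rounded, kept with filterByExpr, scaled with TMM factors and tested with edgeR 4.0.16 (glmQLFit, glmQLFTest; R 4.3.3, limma 3.58.1), with Benjamini-Hochberg adjustment over 16266 genes. Each SE was taken from the size of the log2 fold change over the root of its F statistic. Floors of 3 counts cover counting error only. In simulated counts (15199 genes tested), 100 genes were changed 2-fold and 100 were changed 4-fold, up and down equally. All were well counted in controls, and every gene was given the same fixed dispersion. Of these changes, 85% of the 2-fold and 100% of the 4-fold were recovered, and 2.63% of calls were false. The real comparison called 65.3% of tested genes and holds genes of low count, so these rates are not its error or power.

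The members and lists were chosen with earlier results of these data known. Named pathway genes are, per list, the 2 called genes with the largest and the 2 with the smallest log2 fold change, at a mean of at least 1 CPM. For likeness the 2 nearest genes per member were named, and for neighbours those within 4 genes of the peptide genes. Some results are not reported here. Marker ratios were chosen after seeing the data. Irag1 was matched as Mrvi1. The labels do not say that same-numbered samples share anything, and p-values measure the spread between these animals. Alternatives were RLE, upper-quartile and total-count scaling, other filters, DESeq2 1.42.0, a robust fit, a replicate block and leaving out samples.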

Additional observations from a re-analysis of the deposited data

Results flagged for a closer look

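Each value per library of the members, of the ratios of Ednrb to Ednra and Npr3 to Npr1 and of the marker sums was looked through for a highest or lowest library set off from the next by more than 0.71 of the spread of its 5 libraries. This was so in 2 of 40 sets of values, where chance gives about 2. Both were marker sums of puberulic acid replicate 1. Its proximal tubule markers summed to 807 CPM, with a gap of 0.813 of the range, and its loop of Henle and distal tubule markers to 6315 CPM, with a gap of 0.719. No value of a member met this limit. In the same library Nppb, Nppa and Edn1 were the lowest and Npr2, Npr3, Corin and Ednrb the highest of the treated animals.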

How the results depend on the processing

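The number of genes called stayed within 1.5 times of the reported 10622 in all 19 alternative fits, but total-count scaling gave 9179 higher and 2526 lower. Fits without 1 sample called 10104 to 11108 genes. Members called ran from 4 to 7 over those fits and numbered 5 as reported, 7 with DESeq2 and 8 with the replicate block, where Npr1, Npr3 and Ednrb also passed. Same-numbered samples are different animals whose deviations from the group means correlated between -0.174 and 0.033, and among treated samples 1 of 5 correlated best with its own number (0 of 5 controls). The replicate block called 10325 genes. Npr2, Corin and Edn1 were past the threshold in all 19, Ednra in 11, Npr1 and Npr3 in 6 each and Ednrb in 2, which describes the fits and supports nothing, since the members were chosen on this comparison. Nppb, at 0 counts in all controls, had to pass. Leaving out both puberulic acid replicates 1 and 2, chosen after seeing the data, called 6 members. The difference in log2 Ednrb to Ednra ran from -1.59 to -1.19 and that of Npr3 to Npr1 from -0.49 to -0.20 without 1 sample. Under total counts the bound for Nppb was 164-fold, and the log2 fold changes of Dpp4 (0.258), Gna12 (0.058), Plod1 (0.40), 2510039O18Rik (0.345) and Tbc1d7 (0.112) reversed, which follows from the shift of all genes. With 1 or 0.1 as pseudocount, 11 and 11 of the 16 nearest genes were shared. With 1, no gene named for Nppb or Edn1 was among those shared. Nppa, at 6 to 24 counts per treated library, is at the limit of this depth.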
